A study of Mus musculus with 4 samples.

Results

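Prostaglandins are lipid signals made on demand. Cytosolic phospholipase A2 frees arachidonic acid from membranes, cyclooxygenases turn it into prostaglandin H2, and terminal synthases such as the E synthases turn that into prostaglandin E2, which acts on the EP receptors of the same or neighbouring cells until 15-hydroxyprostaglandin dehydrogenase inactivates it. In the gut, prostaglandin E2 is known for its part in epithelial repair, secretion and tumour growth, and the inducible cyclooxygenase gene Ptgs2 is a textbook NF-kB target.

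The genes described are 10 genes of this pathway, namely the phospholipases Pla2g4a and Pla2g4c, the cyclooxygenase Ptgs2, the E synthases Ptges and Ptges2, the dehydrogenase Hpgd and the receptors Ptger1, Ptger2, Ptger3 and Ptger4. A probe was assigned to a gene when its listed name, or the current symbol of its RefSeq accession, was one of these. This found 16 probes for 9 of the 10 genes, out of 27734 gene names on the array, and no probe for Ptger1. Total RNA from epithelial cells freshly isolated from the small bowel was measured on 1-colour Agilent arrays in 2 samples of IKKb(EE)IEC mice and 2 samples of their WT littermates, 1 array per sample. In IKKb(EE)IEC mice the intestinal epithelial cells express IKKb, a kinase that activates NF-kB, in a constitutively active form. The sources used here do not give the promoter that drives it, the strain, age and sex of the mice or the number of mice pooled in a sample. The samples are labelled biological replicates, and p-values measure the spread between these samples only.

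All 4 arrays lie on 1 slide, those of IKKb(EE)IEC mice in positions 3 and 4 and those of WT mice in positions 1 and 2, so position and genotype cannot be told apart. The arrays of IKKb(EE)IEC mice were the brighter ones, with a 75th percentile of the processed signal of 94.6 and 107.8, against 60.3 and 66.1 on the WT arrays, and 40.8% and 41.1% of spots well above background, against 34.3% and 36.0%. Levels below are log2 of the processed signal relative to that percentile of the same array (0 is the percentile). Differences are IKKb(EE)IEC minus WT and are given with their standard error (SE) from limma, with p-values adjusted over all 12437 genes tested by Benjamini-Hochberg and a threshold of 0.05. A gene was tested when a probe was well above background, as flagged by the scanner software, on at least 2 of the 4 arrays. The median difference of all genes tested was -0.12. The WT arrays were less alike than the IKKb(EE)IEC arrays, with 3 genes over 4-fold apart between the IKKb(EE)IEC arrays, against 33 over 4-fold higher in WT replicate 1 and 43 over 4-fold higher in WT replicate 2. All 10 epithelial markers examined were bright enough to be tested. The kinase gene Ikbkb itself stood at 0.33 and 0.34 in IKKb(EE)IEC samples and at -0.72 and -0.27 in WT samples, a difference of 0.83 ± 0.21 that missed the threshold (limma, adjusted p = 0.055). Whether the Ikbkb probe detects the transgene was not tested.

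To show the DNA from which 3 of these genes start, the 250 bases before the annotated start are printed for Ptgs2, the NF-kB target of the pathway, and for Hpgd and Ptger4, the genes that passed the test. They come from RefSeq, build GRCm38.p6, and read 5′ to 3′ on the gene's strand. They lie at chr1:150099781-150100030 on the plus strand for Ptgs2, at chr8:56294302-56294551 on the plus strand for Hpgd and at chr15:5244188-5244437 on the minus strand for Ptger4. Capitals mark the letters TTGCGCAA, a C/EBP-type motif.
Ptgs2: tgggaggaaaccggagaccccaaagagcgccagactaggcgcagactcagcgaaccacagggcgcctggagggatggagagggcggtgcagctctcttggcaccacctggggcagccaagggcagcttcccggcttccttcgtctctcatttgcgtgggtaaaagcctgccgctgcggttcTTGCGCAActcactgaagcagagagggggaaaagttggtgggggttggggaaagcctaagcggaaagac
Hpgd: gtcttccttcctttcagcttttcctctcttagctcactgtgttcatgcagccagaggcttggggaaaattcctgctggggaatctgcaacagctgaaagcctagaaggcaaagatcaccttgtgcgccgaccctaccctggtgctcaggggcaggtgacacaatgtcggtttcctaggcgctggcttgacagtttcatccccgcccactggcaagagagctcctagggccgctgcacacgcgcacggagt
Ptger4: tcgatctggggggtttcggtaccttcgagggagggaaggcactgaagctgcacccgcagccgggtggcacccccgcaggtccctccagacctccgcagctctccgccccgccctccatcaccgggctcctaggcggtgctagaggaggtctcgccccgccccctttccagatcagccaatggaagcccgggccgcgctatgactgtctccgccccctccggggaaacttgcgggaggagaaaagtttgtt

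The promoter table held 11 windows of 300 bases, 250 before and 50 after a start, for 9 of the genes, and 5 motifs were searched on both strands. The NF-kB consensus, GGG followed by a purine, any base, 3 pyrimidines and CC, was in 0 of the 11 windows and in 5.80% of all 32851 windows in the table. TTGCGCAA was in the Ptgs2 window and in 0.183% of all windows. The Ptgs2 window also held TGACG, the core of the cAMP response element, which 20.8% of all windows hold, and the E-box CACGTG, which 7.15% hold and which overlaps it, both in the bases past the start. CACGTG was also in the Ptges2 window, and TATAAA, found in 13.6% of all windows, was in 1 Pla2g4a window and, past the start, in the Hpgd window. The Ptger4 window held none of the 5 motifs. These are matches of letters within these windows only.

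Of the 9 genes with a probe, 5 were tested, and 2 of them, Hpgd and Ptger4, fell in IKKb(EE)IEC epithelium, 0 rose and 3 did not pass (limma). Over all genes tested, 7.2% fell, 8.02% rose and 15.2% changed in either direction. The prostaglandin-degrading enzyme Hpgd fell 3.06-fold and the receptor gene Ptger4 fell 2.83-fold. At an unadjusted p below 0.05, 0 of the 5 were higher and 4 were lower, where 16.5% of all genes tested were higher and 21.6% lower. The median difference of the 5 was -1.50, against -0.12 over all genes tested. Both IKKb(EE)IEC arrays were below both WT arrays for 4 of the 5, where 40.8% of all genes tested were separated in that way, 28.3% in the opposite way and 69.1% in either. The other 4 genes with a probe, Ptgs2, Ptges, Ptger2 and Ptger3, had no probe well above background on any array.

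**Figure D1:**
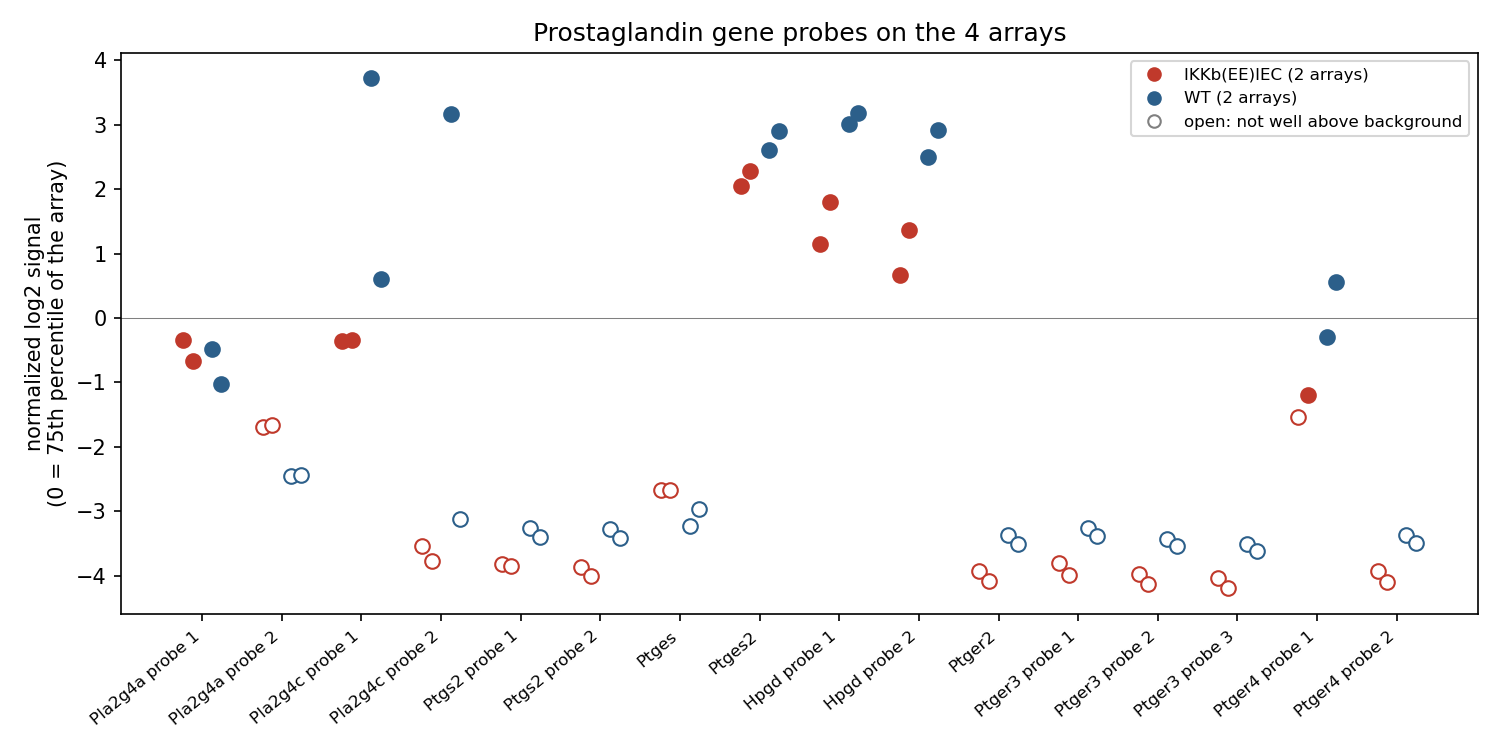
Normalized log2 signal (vertical axis, 0 is the 75th percentile of the array) of each probe of the prostaglandin genes on the 2 IKKb(EE)IEC arrays, drawn left, and the 2 WT arrays, drawn right, with 1 point per array and open points where the probe was not well above background. Both Hpgd probes lie lower on both IKKb(EE)IEC arrays, Pla2g4c stands out on 1 WT array, and 9 of the 16 probes have open points only.

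The pathway starts with the phospholipases, and neither of those listed passed the test. Pla2g4a encodes the calcium-dependent cytosolic phospholipase A2 that supplies most arachidonic acid for prostaglandins. Its probe (chr1:151592221-151592280, mm8) stood at -0.34 and -0.67 in IKKb(EE)IEC samples and at -0.48 and -1.02 in WT samples. The genotypes overlapped, and the difference of 0.25 ± 0.25 (limma, adjusted p = 0.491) had a 95% interval of -0.38 to 0.88, so a change of either sign within it is not excluded. Its second probe was not well above background on any array. With no scaling between arrays, the difference was 0.93 (limma, adjusted p = 0.0173).

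Pla2g4c, which encodes a phospholipase of the same family that works without calcium, was read mainly from 1 WT array. Its probe (chr7:12260361-12260420, mm8) stood at -0.35 on both IKKb(EE)IEC arrays and at 3.71 and 0.60 on the WT arrays. WT replicate 1 was thus 8.63-fold above WT replicate 2, the 8th largest excess of WT replicate 1 over WT replicate 2 among all genes tested. The second Pla2g4c probe was well above background on WT replicate 1 only, with a processed signal of 8.15 and 7.95 in IKKb(EE)IEC samples and 538 and 7.61 in WT samples, so both probes show the same array standing apart. The difference of -2.51 ± 0.95 did not pass (limma, adjusted p = 0.119, 95% interval -4.88 to -0.13). Its size depended on which WT array was kept, at -0.95 without WT replicate 1 and -4.06 without WT replicate 2. A fit with 1 array of a genotype holds no spread between samples of that genotype, so no p-value is given for such fits. Counts over settings include them, with the lone array assumed to vary like the other genotype. With a shift by the array median in place of the 75th percentile, the difference was -2.45 and passed (limma, adjusted p = 2.14e-12). That fit gave every gene the same standard error. Pancreatic enzyme genes were also uneven among these arrays: the 3 of 5 listed that were tested summed to a linear level of 16.2 and 20.9 in IKKb(EE)IEC samples and 452 and 186 in WT samples, 2 of the 3 fell, and the other 2 of the 5 were not well above background on any array. Their part in the Pla2g4c values was not tested.

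Ptgs2, which encodes the inducible cyclooxygenase COX-2, was not detected in either genotype. The array carries 11 spots for it, 10 of them of 1 probe (chr1:151869832-151869891, mm8) and 1 of a second (chr1:151869504-151869563), and 0 of the 44 spots on the 4 arrays were well above background. Processed signals of its spots were 4.92 to 16.5, and 40 of the 44 were values that the scanner software substitutes for dim spots. The lowest processed signal flagged well above background was 26.6 and 27.2 in IKKb(EE)IEC samples and 24.5 and 25.3 in WT samples. No fold is given for Ptgs2, since a difference below that limit was not detectable on these arrays.

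The E synthases convert prostaglandin H2 to prostaglandin E2. The inducible synthase Ptges (chr2:30714327-30714386, mm8), which is often induced together with COX-2, had a processed signal of 14.9 and 17.0 in IKKb(EE)IEC samples and 6.46 and 8.52 in WT samples. All 4 values were below the lowest signal called well above background, so no fold is given. Ptges2 (chr2:32224457-32224516, mm8), a second membrane-associated E synthase, was detected on every array, at 2.05 and 2.28 in IKKb(EE)IEC samples and 2.60 and 2.90 in WT samples. The groups did not overlap, and the difference of -0.58 ± 0.20 missed the threshold (limma, adjusted p = 0.095, 95% interval -1.07 to -0.09). Its sign rested on the scaling: unscaled processed signals were 393 and 524 in IKKb(EE)IEC samples and 365 and 492 in WT samples, and the difference without scaling was 0.10. Leaving out 1 array, the scaled difference was -0.73 (without WT replicate 1) to -0.43 (without WT replicate 2).

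Hpgd encodes the enzyme that oxidises the 15-hydroxyl group of prostaglandins and so ends their signal, and it fell in IKKb(EE)IEC epithelium. Its brighter probe (chr8:59212744-59212803, mm8) stood at 1.16 and 1.80 in IKKb(EE)IEC samples and at 3.01 and 3.17 in WT samples. Both WT arrays were above both IKKb(EE)IEC arrays, and the WT arrays lay closer together than the IKKb(EE)IEC arrays. The difference was -1.61 ± 0.26 (limma, adjusted p = 0.0203, 95% interval -2.26 to -0.97), which is a 3.06-fold lower level. A second probe in the same gene (chr8:59212385-59212444) stood at 0.67 and 1.36 in IKKb(EE)IEC samples and at 2.49 and 2.91 in WT samples. Its difference of -1.69 ± 0.29 was of like size and also passed when adjusted over all 16394 probes tested (limma, adjusted p = 0.0243), where 5.72% of probes fell and 8.16% rose. Unscaled processed signals kept the order, with 211 and 375 in IKKb(EE)IEC samples and 485 and 596 in WT samples for the brighter probe.

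The size of the Hpgd fall depended on which IKKb(EE)IEC array was kept. Whether its call held without 1 array is not judged, for want of spread within a genotype. Without WT replicate 1 or 2 the difference was -1.69 or -1.53. The Hpgd difference was -1.29 without IKKb(EE)IEC replicate 1, the lower of the IKKb(EE)IEC arrays, and -1.94 without IKKb(EE)IEC replicate 2. With normexp background correction it was -1.12, in a fit that called no gene of the 12437. Over all settings tried it was -1.94 to -0.94. In RNA from many cells, fewer cells of a type and less RNA per cell cannot be told apart. Of the 10 epithelial markers, 1 fell, the fatty acid-binding protein gene Fabp2, 0 rose and 9 did not pass. Their median difference was -0.014 and 5 of the 10 were negative, while their summed linear level was 4250 and 4510 in IKKb(EE)IEC samples and 8325 and 10987 in WT samples. The part of this in the Hpgd values was not tested. The 3 genes whose 4 centred levels lay nearest to those of Hpgd were Mast1, Adck5 and C4bp, at Euclidean distances of 0.139, 0.224 and 0.273 over the 4 arrays. Mast1 stood at -2.94 and -2.19 in IKKb(EE)IEC samples, below the lowest level flagged well above background there (-1.83 and -1.99). Its distance therefore rests on dim values.

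The receptors mediate the action of prostaglandin E2, and Ptger4 was the only one tested. It encodes EP4, which raises cyclic AMP and is known in the gut for supporting epithelial integrity. Its probe (chr15:5181634-5181693, mm8) stood at -1.54 and -1.19 in IKKb(EE)IEC samples and at -0.29 and 0.56 in WT samples, and the first of these 4 values was not well above background. Both IKKb(EE)IEC arrays were below both WT arrays, with processed signals of 32.5 and 47.3 in IKKb(EE)IEC samples and 49.2 and 97.6 in WT samples. The difference was -1.50 ± 0.32 (limma, adjusted p = 0.0392, 95% interval -2.30 to -0.70), a 2.83-fold lower level. A second Ptger4 probe (chr15:5153890-5153949), was not well above background on any array.

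The fall of Ptger4 was near the threshold and near the background. It was lost with no filter on dim probes (-1.50, adjusted p = 0.0628) and without scaling (-0.82, adjusted p = 0.0881), both in limma. The difference was -1.32 without IKKb(EE)IEC replicate 1 and -1.68 without IKKb(EE)IEC replicate 2. Without WT replicate 1 or 2 it was -1.93 or -1.07. In the authors' deposited table, where the 4 values were 116.3 and 126.6 in IKKb(EE)IEC samples and 160.8 and 203.5 in WT samples, limma gave -0.58 (adjusted p = 0.0536). Normexp gave -0.47 and no call. Ptger4 is also made by immune cells. The 5 T cell markers were all tested and 0 passed, with a summed linear level of 13.5 and 13.6 in IKKb(EE)IEC samples and 18.1 and 19.8 in WT samples. Macrophage markers ran the other way, with 5 of the 9 tested passing as higher and 0 as lower, 4 of these 5 having entered the test through the IKKb(EE)IEC arrays only, and a summed level of 28.7 and 22.5 in IKKb(EE)IEC samples and 7.84 and 9.93 in WT samples. B cell markers were not well above background on any array for any of the 3 listed. The part of these cells in the Ptger4 values was not tested.

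The other receptor genes gave no measurable level. Ptger2 encodes EP2, which like EP4 raises cyclic AMP, and its 1 probe read 6.25 and 6.39 in IKKb(EE)IEC samples and 5.82 and 5.84 in WT samples, all substituted values. Ptger3 encodes EP3, which lowers cyclic AMP, and its 3 probes also held substituted values on all arrays. For none of these is a fold given, and a level below the detection limit is not the same as none.

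**Figure D2:**
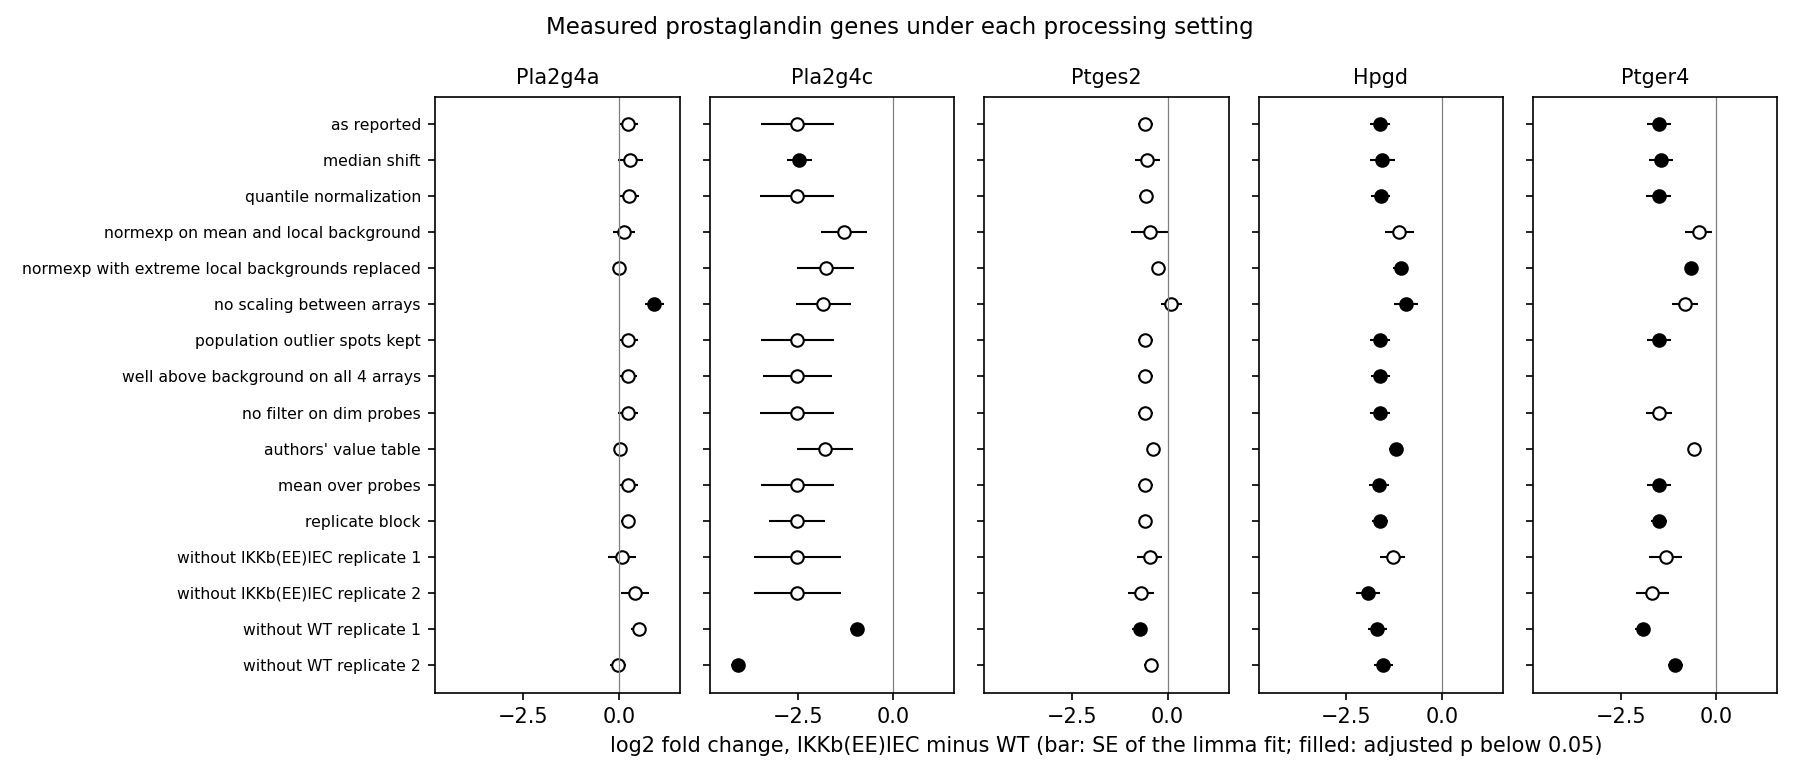
Log2 difference, IKKb(EE)IEC minus WT (horizontal axis, 0 marked), of the 5 tested prostaglandin genes under the settings tried (rows), with filled points where limma's adjusted p is below 0.05. Fits that leave out 1 array assume that the lone array of a genotype varies like the other genotype. Hpgd lies between -1.94 and -0.94, Ptger4 between -1.93 and -0.47, and Ptges2 and Pla2g4a each cross 0 under 1 setting.

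Other genes of eicosanoid metabolism were read from 3 lists of 59 genes taken from textbook knowledge, of which 58 had a probe and 38 were tested. In IKKb(EE)IEC epithelium 2 of the 38 passed as higher, 4 fell and 32 did not pass (limma), against 8.02% and 7.2% of all genes. Of these 2, Pla2g2d entered the test only through the IKKb(EE)IEC arrays, where it is high. The median difference of the 38 was -0.43, against -0.12 over all genes. It was -0.48 without IKKb(EE)IEC replicate 1 and -0.38 without IKKb(EE)IEC replicate 2, against -0.09 and -0.14 over all genes. It was -0.46 without WT replicate 1 and -0.23 without WT replicate 2, against -0.17 and -0.07 over all genes. Without scaling it was 0.25, against 0.56.

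**Figure D3:**
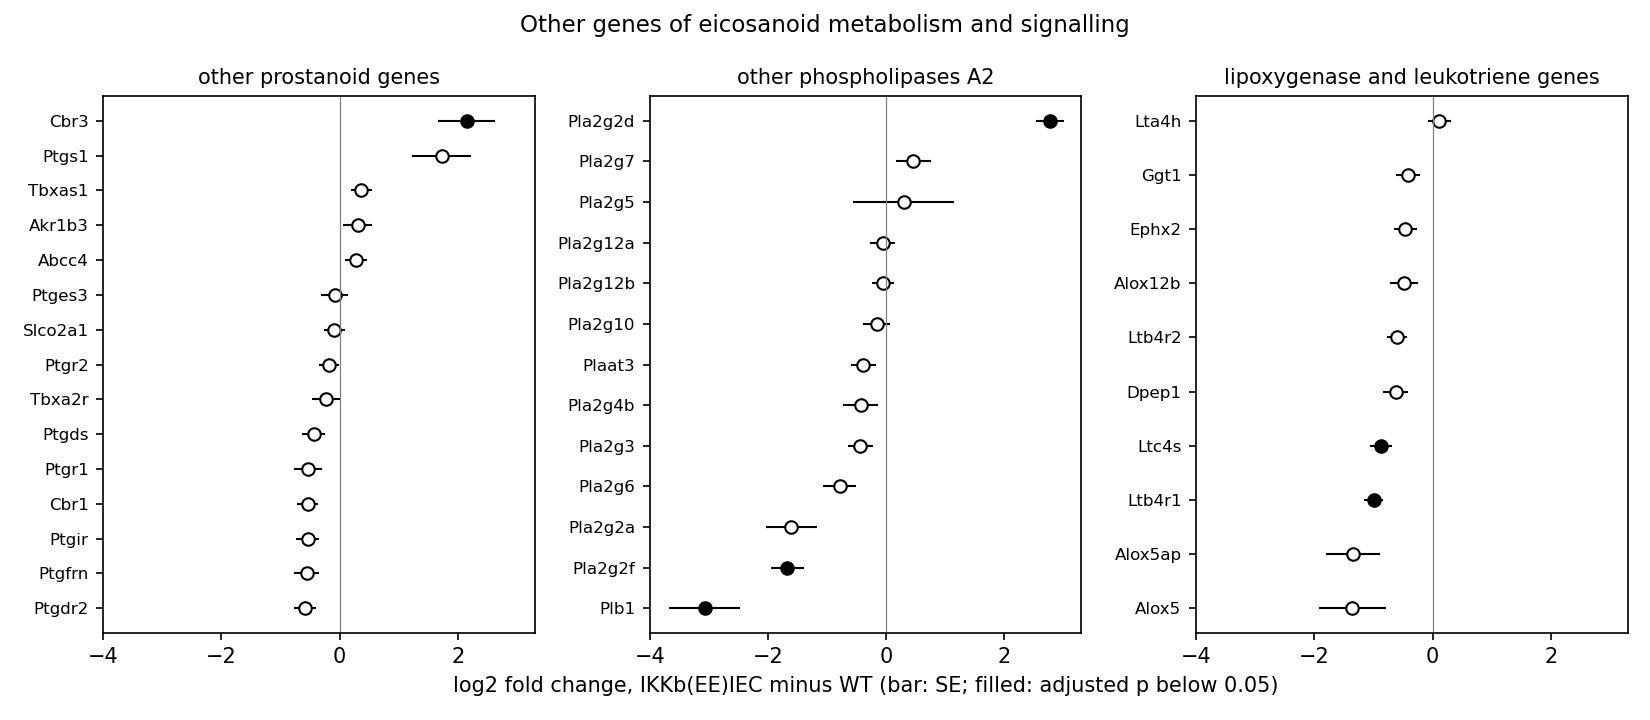
Log2 difference, IKKb(EE)IEC minus WT (horizontal axis), with SE bars, of the tested genes of 3 wider lists (panels, 1 gene per row), with filled points where limma's adjusted p is below 0.05. Filled points are few: Cbr3 and Pla2g2d on the positive side and Plb1, Pla2g2f, Ltb4r1 and Ltc4s on the negative side. Pla2g2d entered only through the IKKb(EE)IEC arrays, where it is high, so its point is a description with no test.

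Among 20 other prostanoid genes, 15 were tested, 1 rose, 0 fell and 14 did not pass, and 5 were not well above background on any array. The gene that rose was Cbr3, a carbonyl reductase gene, at 3.01 and 1.81 in IKKb(EE)IEC samples and 0.73 and -0.21 in WT samples. The difference was 2.15 ± 0.49 (limma, adjusted p = 0.0441), and it missed the threshold in the authors' table (limma, adjusted p = 0.0501). Leaving out 1 array, it was 1.55 (without IKKb(EE)IEC replicate 1) to 2.75 (without IKKb(EE)IEC replicate 2). All IKKb(EE)IEC values lay above all WT values. Ptgs1 encodes the constitutive cyclooxygenase COX-1 and was well detected where Ptgs2 was not. It stood at 2.15 and 1.76 in IKKb(EE)IEC samples and 0.98 and -0.52 in WT samples (chr2:36074133-36074192, mm8). The groups did not overlap, and the difference of 1.72 ± 0.49 missed the threshold (limma, adjusted p = 0.0685, 95% interval 0.49 to 2.96). It passed under 7 of the 15 other settings, over which it was 0.97 to 2.48. These 7 include no scaling, where 95.9% of all calls were higher, and the median shift, which gave every gene the same standard error. They also include both fits that left out a WT array, which hold no spread between WT samples. The rest were the authors' table (adjusted p = 0.0486), normexp with high local backgrounds replaced (0.0362), chosen after seeing the data, and the replicate block (0.035), all in limma. With IKKb(EE)IEC replicate 1 or 2 left out the Ptgs1 difference was 1.53 or 1.92, and with WT replicate 1 or 2 left out 2.48 or 0.97. The macrophage markers given above were likewise higher in IKKb(EE)IEC samples, and their part in the Cbr3, Ptgs1 and Pla2g2d values was not tested.

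Probes of 3 prostanoid genes gave unlike answers. Slco2a1 encodes the transporter that takes prostaglandins into cells for breakdown. Its representative probe (chr9:102944869-102944928, mm8) stood at 1.36 and 1.22 in IKKb(EE)IEC samples and 1.26 and 1.502 in WT samples, a difference of -0.09 ± 0.18. A second probe (chr9:102945854-102945913) stood at 2.09 and 1.93 in IKKb(EE)IEC samples and 0.85 and 0.28 in WT samples, a difference of 1.45 ± 0.24 (limma over probes, adjusted p = 0.0224). The representative overlapped between genotypes and the second did not. Ptgfrn, whose product binds the prostaglandin F receptor, had 1 probe that rose by 0.84 (adjusted p = 0.044) and 1, its representative, at -0.56 (adjusted p = 0.128). Tbxas1, the thromboxane synthase gene, had its representative at 0.37 (adjusted p = 0.206) and a dimmer probe, below the detection flag on both WT arrays, at least 1.25-fold higher. This dimmer probe entered only through the IKKb(EE)IEC arrays, so its bound is a description, with no test. The bound is not strict, since some probes above the level it uses were not flagged. The direction for Slco2a1 and Ptgfrn therefore depended on the probe.

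**Figure D4:**
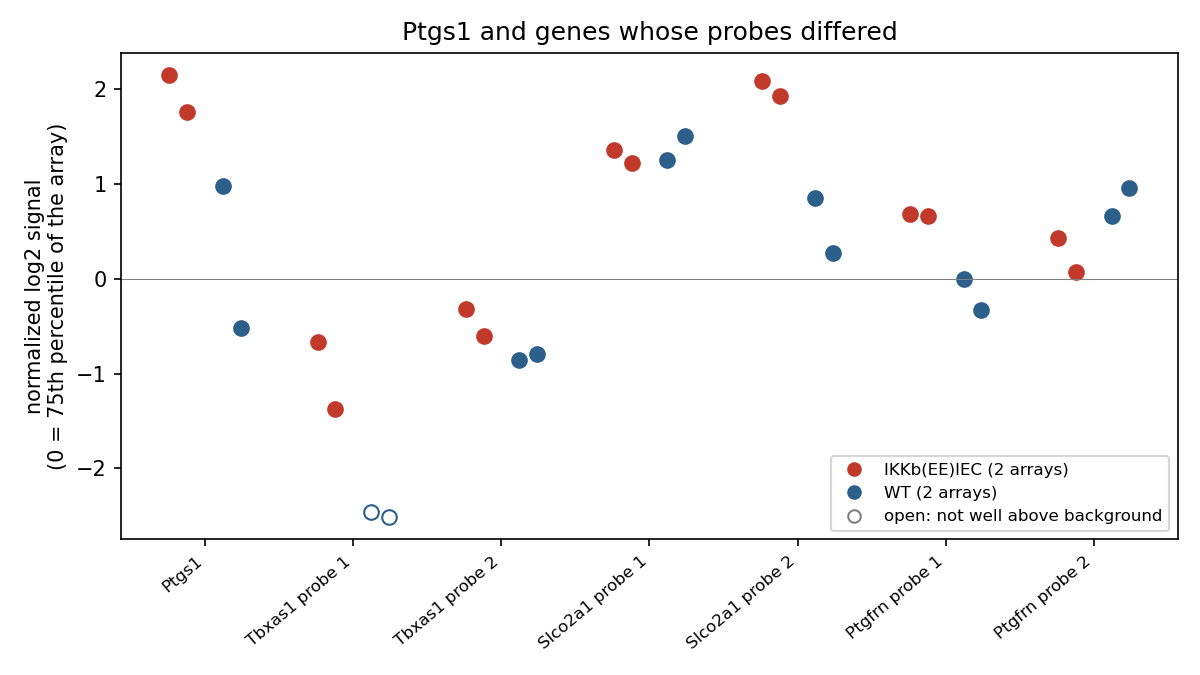
Normalized log2 signal (vertical axis, 0 is the 75th percentile of the array) of Ptgs1 and of the probes of genes whose probes differed, on the 2 IKKb(EE)IEC arrays (left) and the 2 WT arrays (right), 1 point per array, open where the probe was not well above background. Ptgs1 is higher on both IKKb(EE)IEC arrays, and of the Slco2a1 probes only the second separates the genotypes.

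Among other phospholipases, 13 of 19 genes on the array were tested, 1 passed as higher, 2 fell and 10 did not pass, with a median of -0.38 (0.29 without scaling). Pla2g2d, a secreted phospholipase gene, was well above background on IKKb(EE)IEC arrays only, at -0.16 and -0.71 in IKKb(EE)IEC samples and -3.15 and -3.29 in WT samples, and was at least 1.87-fold higher, a description with no test, since it entered only through the arrays where it is high. For this bound the WT arrays enter at the lowest level flagged well above background where the probe lies below it. Some probes above that level were not flagged, so the bound is not strict. Plb1 encodes a phospholipase of the intestinal brush border and stood at -1.01 and -0.66 in IKKb(EE)IEC samples and 1.29 and 3.19 in WT samples, a difference of -3.07 ± 0.61 (limma, adjusted p = 0.0341). The WT arrays differed widely for Plb1, and both exceeded both IKKb(EE)IEC arrays. Another Plb1 probe was well above background on WT replicate 2 only. Its processed signal was 7.26 and 7.31 in IKKb(EE)IEC samples and 8.06 and 51.4 in WT samples. The remaining Plb1 probes were not well above background on any array. The pancreatic enzyme genes given above were also lower in IKKb(EE)IEC samples, and their part in the Plb1 values was not tested. Pla2g2f, another secreted phospholipase gene, stood at 0.55 and 0.92 in IKKb(EE)IEC samples and 2.08 and 2.73 in WT samples, a difference of -1.67 ± 0.28 (limma, adjusted p = 0.0226). Plb1 and Pla2g2f did not pass without IKKb(EE)IEC replicate 1 (adjusted p = 0.141 and 0.147) or without IKKb(EE)IEC replicate 2 (0.106 and 0.0848).

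Lipoxygenases and leukotriene genes form the branch that competes with cyclooxygenases for arachidonic acid. Of 19 genes, 10 were tested, 0 rose, 2 fell and 8 did not pass, with a median of -0.62. For 9 of the 10 both IKKb(EE)IEC arrays were below both WT arrays (40.8% of all genes). These 9 include Ephx2, Ggt1 and Dpep1, which are not particular to this branch. The sign of this list rested on the scaling: without scaling its median was 0.063, against 0.56 over all genes, with 1 passing as higher and 0 as lower. Ltb4r1, the high-affinity leukotriene B4 receptor gene, stood at 1.65 and 1.71 in IKKb(EE)IEC samples and 2.65 and 2.70 in WT samples, a difference of -0.998 ± 0.16 (limma, adjusted p = 0.0216). Ltc4s, the leukotriene C4 synthase gene, stood at -0.32 and -0.15 in IKKb(EE)IEC samples and 0.77 and 0.50 in WT samples, a difference of -0.87 ± 0.19 (limma, adjusted p = 0.0399; 0.0556 with the replicate number as a block). Neither passed without IKKb(EE)IEC replicate 1 or without IKKb(EE)IEC replicate 2, where Ltb4r1 had adjusted p of 0.214 and 0.205 and Ltc4s of 0.293 and 0.255. Tuft cells, an epithelial type known for making leukotrienes, had 3 of 7 markers tested, 0 of which passed, and 4 not well above background on any array. Their summed level was 18.9 and 16.6 in IKKb(EE)IEC samples and 36.7 and 22.7 in WT samples, and their part in the leukotriene gene values was not tested.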

How the data were processed

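Per the file headers, Agilent Feature Extraction 9.5.3.1 made the deposited intensities: its processed signal is background-subtracted and detrended, dim spots hold substituted values, and no normalization between arrays is recorded. Spot flags and probe coordinates (mm8), of unit other, are as deposited by the authors. The authors' deposited value table of linear intensities had medians of 111.5 to 112.0; the sources used here do not give its normalization. Cy3-labelled cRNA was made from 250 ng RNA, per the labels' protocols.

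Each array's log2 signals were shifted by the 75th percentile of its non-control spots. Outlier spots (non-uniformity or population) and controls were left out, spots of a probe were averaged, and 12 probes with a missing array were dropped. A gene took its probe with the highest mean among 16394 passing. The comparison used limma 3.58.1 (lmFit, eBayes; R 4.3.3), tested on simulated data (prior 3.51 degrees of freedom). With 2 against 2 arrays the smallest permutation p is 0.333. A bound ("at least N-fold") sets the brighter genotype against the higher of the probe's own level and the lowest level well above background on each dim array. That lowest level was -1.30 and -1.39 on the WT arrays, yet Tbxa2r was not flagged there at -0.91 and -0.90. A bound is therefore not a strict limit. The number of arrays limits precision, and counts are not available. Of 41174 probes, 24375 were named through RefSeq accessions (GRCm38.p6), 4647 through another probe of the same name, and 12152 kept the listed name. All members and Ikbkb are named; from each wider list up to 4 passing genes per direction, with Ptgs1 always; and the 3 genes nearest Hpgd. Slco2a1, Ptgfrn, Tbxas1, Fabp2, Ephx2, Ggt1 and Dpep1 were named after their values were seen. The members and lists were chosen with earlier results of these data known. Alternatives were other scalings, background corrections, filters, probe rules, the authors' table, a replicate block and leaving out each array. Markers of mast cells, neutrophils, fibroblasts, endothelium, smooth muscle and liver were also examined: 0 of 2, 0 of 1, 0 of 3, 0 of 1 and 1 of 3 tested passed (Myh11, lower), and 0 liver markers were tested.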

Additional observations from a re-analysis of the deposited data

How the results depend on the processing

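Over all genes, 998 rose and 896 fell, with 52.7% of calls higher. Normexp called 0 and 0 in limma (77 and 94 at an unadjusted p below 0.05, of the genes described above 0 and 1, of the wider lists 0 and 0). With local backgrounds above 60 replaced, chosen after seeing the data, 555 fell and 71.7% of calls were higher. No scaling, also chosen after seeing the data, gave 4785 higher and 204 lower (95.9%), no filter 501 and 342, a median shift 63.2% higher and a filter on all 4 arrays 39.98%. With the replicate number as a block, 588 fell and 60.8% of calls were higher; same-numbered samples deviated together with r = 0.108 over 2 pairs, and the labels give only a number. Among named genes, the block moved Ptgs1 to an adjusted p of 0.035 and ended the call of Ltc4s (0.0556). Leaving out 1 array, with the lone array of a genotype assumed to vary like the other genotype, gave 160 to 2631 higher and 81 to 3535 lower. Of the prostaglandin genes, 1 rose without scaling and 0 otherwise (0 to 0 when leaving out 1 array). Normexp called 0 lower; no scaling, the filter on all 4 arrays, no filter and the authors' table called 1 each; leaving out 1 array gave 0 to 4, with none without IKKb(EE)IEC replicate 1 and 4 without WT replicate 1. In the wider lists, normexp called 0 and 0, no scaling 8 higher and 2 lower, the filter on all 4 arrays 1 higher, no filter 0 lower, and leaving out 1 array 1 to 5 higher and 0 to 16 lower. Their median was -0.20 and -0.21 with the normexp corrections, 0.25 without scaling, -0.16 in the authors' table and -0.48 to -0.23 leaving out 1 array. Signs turned for Ptges2 without scaling (0.10), Pla2g4a without WT replicate 2 (-0.021; -0.021 to 0.52 leaving out 1 array), and Slco2a1 with normexp after replacement (0.047), without scaling (0.59), as the mean of its probes (0.68) and without WT replicate 2 (0.032; -0.21 to 0.032 leaving out 1 array). Ptger4 and Pla2g2d had no value under the filter on all 4 arrays. Pla2g2d is not scored here, since it entered only through the arrays where it is high. The counts of higher genes in the wider lists include it where it passed. The threshold was missed under 9 of 15 settings by Ltc4s, 5 by Ltb4r1, 5 by Plb1, 4 by Cbr3, 4 by Pla2g2f and 2 by Hpgd. Ptger4 missed it under 6 of 14, and none of these genes changed sign. The cause was not tested. Keeping population outlier spots, chosen after seeing the data, quantile normalization and the mean over probes changed none of the counts over all genes, the prostaglandin genes or the 3 wider lists together by over 1.5 times; with the mean over probes, 2 other prostanoid genes passed as higher in place of 1. Signal over background limits Ptgs2, Ptges, Ptger2, Ptger3 and Ptger4.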
